A study of Mus musculus with 2 samples.

Results

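The genes described here are 10 genes of class I antigen presentation and the immunoproteasome, namely Psmb8, Psmb9, Psmb10, Tap1, Tap2, Tapbp, B2m, H2-K1, H2-D1 and Nlrc5, among 51826 genes in the deposited table. They were taken by gene symbol, all 10 were found once, and they were selected on measured values, the TPM of these same 2 libraries, so their levels are given as a description without a test. Total RNA was measured in mouse embryonic stem (ES) cells, in 1 library labelled wild-type and 1 labelled T29I, after the series title a mutation of the trypsinogen gene PRSS1. Both libraries carry the same source label, v6.5, and the same strain label, NBA1-19349, and no treatment, clone or culture is named for either. There is 1 library per group and so no replicate: "higher" and "lower" describe these 2 libraries, and genotype, clone, culture and library preparation cannot be told apart.

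Class I molecules show peptides from the cell's own proteins to cytotoxic T cells. The proteasome cuts proteins into peptides, the TAP transporter moves these into the endoplasmic reticulum, and tapasin holds the empty class I molecule at TAP until a peptide is bound. The class I molecule itself is a heavy chain paired with beta-2-microglobulin. Interferon induces immunoproteasome subunits, which replace the catalytic subunits in newly assembled proteasomes, and raises the other genes of the pathway, partly through the transactivator NLRC5. ES cells are known for low surface class I, which rises on differentiation or with interferon.

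Most of the 10 genes lie on 1 chromosome, and some share promoter sequence. In GENCODE M21 (GRCm38), 7 lie on chromosome 17, 2 (Psmb10 and Nlrc5) on chromosome 8 and 1 (B2m) on chromosome 2. Psmb9, Tap1, Psmb8 and Tap2 lie together in 34335 bases, chr17:34181987-34216321, and H2-K1 (chr17:33996017-34000347), Tapbp (chr17:33915899-33929292) and H2-D1 (chr17:35262730-35267499) lie on either side. RefSeq promoter windows (GRCm38.p6), from 250 bases before to 50 after the annotated start, were found for 8 of the 10, all but Tap2 and Nlrc5. The 4 windows below are shown because they serve the heavy chains, their partner B2m, and the start shared by Tap1 and Psmb9, whose windows on opposite strands overlap by 275 bases. Capitals mark the core of an interferon regulatory factor element (AANNGAAA), the core of the X2 box (TGACG) and the CCAAT or Y box, on either strand; Y is the box's name. The windows are chr17:34000298-34000597 (- strand) for H2-K1, chr17:35262844-35263143 (+) for H2-D1, chr2:122147437-122147736 (+) for B2m and chr17:34187306-34187605 (+) for Tap1.
H2-K1: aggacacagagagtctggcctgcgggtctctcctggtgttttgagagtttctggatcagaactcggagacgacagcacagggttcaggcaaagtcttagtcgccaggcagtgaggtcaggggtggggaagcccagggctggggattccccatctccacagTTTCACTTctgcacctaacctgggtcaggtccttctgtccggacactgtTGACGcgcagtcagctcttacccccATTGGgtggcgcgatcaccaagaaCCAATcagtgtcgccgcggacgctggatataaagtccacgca
H2-D1: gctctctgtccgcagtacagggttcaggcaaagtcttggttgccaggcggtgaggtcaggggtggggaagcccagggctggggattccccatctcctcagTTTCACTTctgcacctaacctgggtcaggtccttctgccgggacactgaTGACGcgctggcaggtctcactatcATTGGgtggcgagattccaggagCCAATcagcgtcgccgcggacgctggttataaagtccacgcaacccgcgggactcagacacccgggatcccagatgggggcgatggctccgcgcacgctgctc
B2m: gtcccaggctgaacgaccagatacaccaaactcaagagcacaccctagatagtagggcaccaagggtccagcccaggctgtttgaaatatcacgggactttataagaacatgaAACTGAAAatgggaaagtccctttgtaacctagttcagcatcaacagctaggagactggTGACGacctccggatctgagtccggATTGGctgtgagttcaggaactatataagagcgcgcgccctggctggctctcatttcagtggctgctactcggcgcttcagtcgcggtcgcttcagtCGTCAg
Tap1: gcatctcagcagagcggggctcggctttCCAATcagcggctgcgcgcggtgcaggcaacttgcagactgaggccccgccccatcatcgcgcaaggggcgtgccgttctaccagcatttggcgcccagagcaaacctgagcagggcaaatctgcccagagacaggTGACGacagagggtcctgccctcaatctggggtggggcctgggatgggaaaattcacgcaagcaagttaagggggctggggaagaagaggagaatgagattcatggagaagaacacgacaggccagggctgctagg

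In the H2-K1, H2-D1 and B2m windows the X2 core and a reversed CCAAT box stood in the same order with 20 bases between them. That spaced pattern, TGACGNNNNNNNNNNNNNNNNNNNNATTGG, was defined after these windows had been read. Searched on both strands, it was in 3 of the 8 windows and in 0.0944% (31) of the 32851 windows of the table, some of which are second starts of 1 gene. The spaced pattern overlaps the X2 and CCAAT matches, since it is built from them. The IRF core AANNGAAA was in the same 3 windows, against 23.9% of all windows. TGACG was in 5 of the 8 (20.8% of all windows) and CCAAT in 6 (37.4%). In the overlapping windows of Tap1 and Psmb9 the TGACG and CCAAT matches are the same bases, counted for each gene. Of these patterns none was matched in the windows of Psmb8 and Psmb10, and only CCAAT in that of Tapbp. Over the 239 bases that could be aligned, the H2-K1 and H2-D1 windows were identical at 211 (88.3%). A match is a description of letters and not a bound site.

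**Figure D1:**
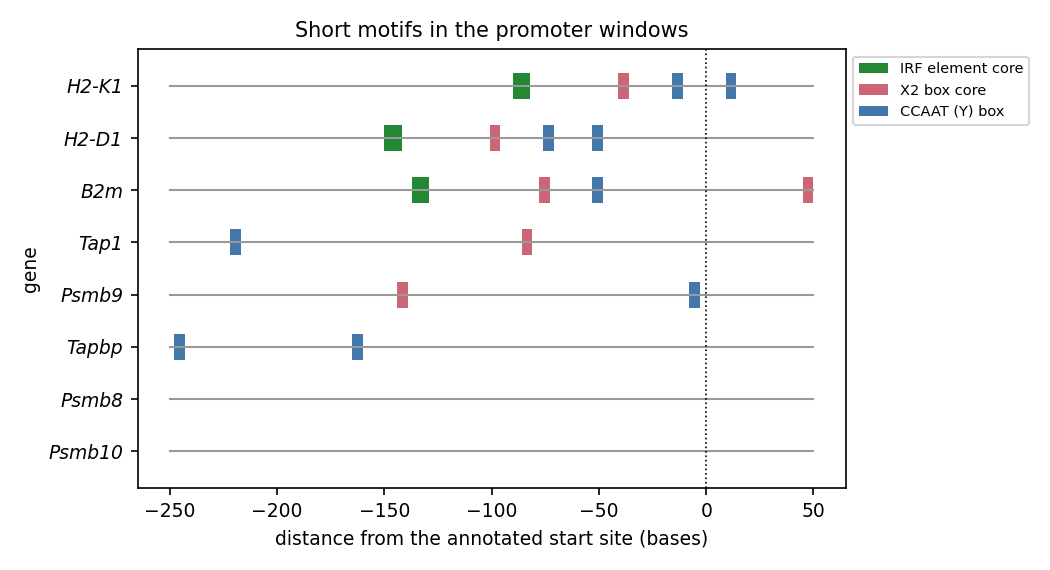
Distance in bases from the annotated start site (x axis, 0 at the dotted line) of 3 short motifs in the promoter windows of 8 genes (y axis), as coloured boxes. In H2-K1, H2-D1 and B2m an IRF core, an X2 core and a CCAAT box follow in the same order, while Psmb8 and Psmb10 hold none of the 3.

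Of the 10 genes, 9 had a higher level in T29I and 1, Nlrc5, a lower one. Levels are in TPM (transcripts-per-million, abundance per unit of transcript length) and ratios, unless called a fold, are log2 of (TPM + 1), T29I over wild-type, a scale that understates the differences of low genes. Below, wild-type and T29I name the 2 libraries, of an estimated 16910002 and 15281662 reads, and paired values are in that order. In bulk RNA, more cells with a transcript and more of it per cell cannot be told apart. The 10 genes summed to 140 TPM in wild-type and 401 TPM in T29I. Of the 10, 9 averaged at least 1 TPM, and 7 of these were up 2-fold or more and 0 down 2-fold or more. Across all 12943 genes with such a mean, 9.97% were up 2-fold or more and 45.7% down 2-fold or more. The other 2 of the 9 were B2m and Tap1, with log2 ratios of 0.97 and 0.81. The median log2 ratio of the 9 was 1.61, against -0.84 for all genes tested. Of the 9, Psmb8, Psmb9 and Tap2 reached 1 TPM in T29I only, so they entered through the library in which they were higher. The genes were chosen with this contrast known, so the counts are read as a description only.

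**Figure D2:**
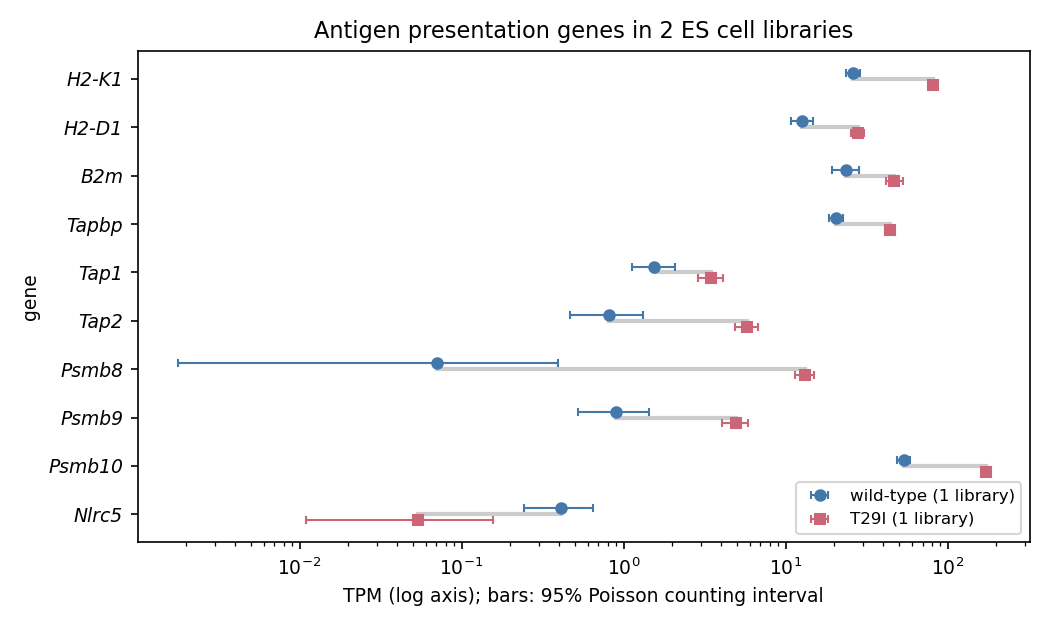
TPM on a log axis (x) of the 10 genes (y) in wild-type (circles) and the T29I library (squares), with 95% Poisson counting intervals from estimated reads. The T29I value lies to the right for 9 genes and to the left for Nlrc5, and the 2 intervals overlap for none of the 10.

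Most genes were lower in T29I, and the ratio followed transcript length and GC content, so each ratio is also given in 2 other ways. Relative to the shift, the median log2 ratio of -0.90 over genes averaging at least 5 TPM, all 9 genes were up 2-fold or more, against 26.0% of the genes tested, with 22.2% down 2-fold or more. After adjustment for length and GC content (residuals of a quadratic fit, which accounted for 44.9% of the variance of the ratios it was fitted on), 8 of the 9 were up 2-fold or more, against 17.6% of 12920 genes, with 15.5% down 2-fold or more. The median of the 9 was 2.51 once the shift was subtracted and 1.56 when adjusted, where all genes tested had medians of 0.055 and 0.040. Between them the 9 genes spanned log2 ratios from 0.81 for Tap1 to 3.72 for Psmb8 as deposited, and from 0.93 for H2-D1 to 3.91 for Psmb8 after adjustment. Only 0.247% of the genes tested had a ratio as high as that of Psmb8, while 12.8% had one as high as that of Tap1. Subtracting the negative shift can only raise a ratio and keeps the order, so among these 3 scales only the adjustment could have changed either. It left the direction of the 9 as it was and changed their order.

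**Figure D3:**
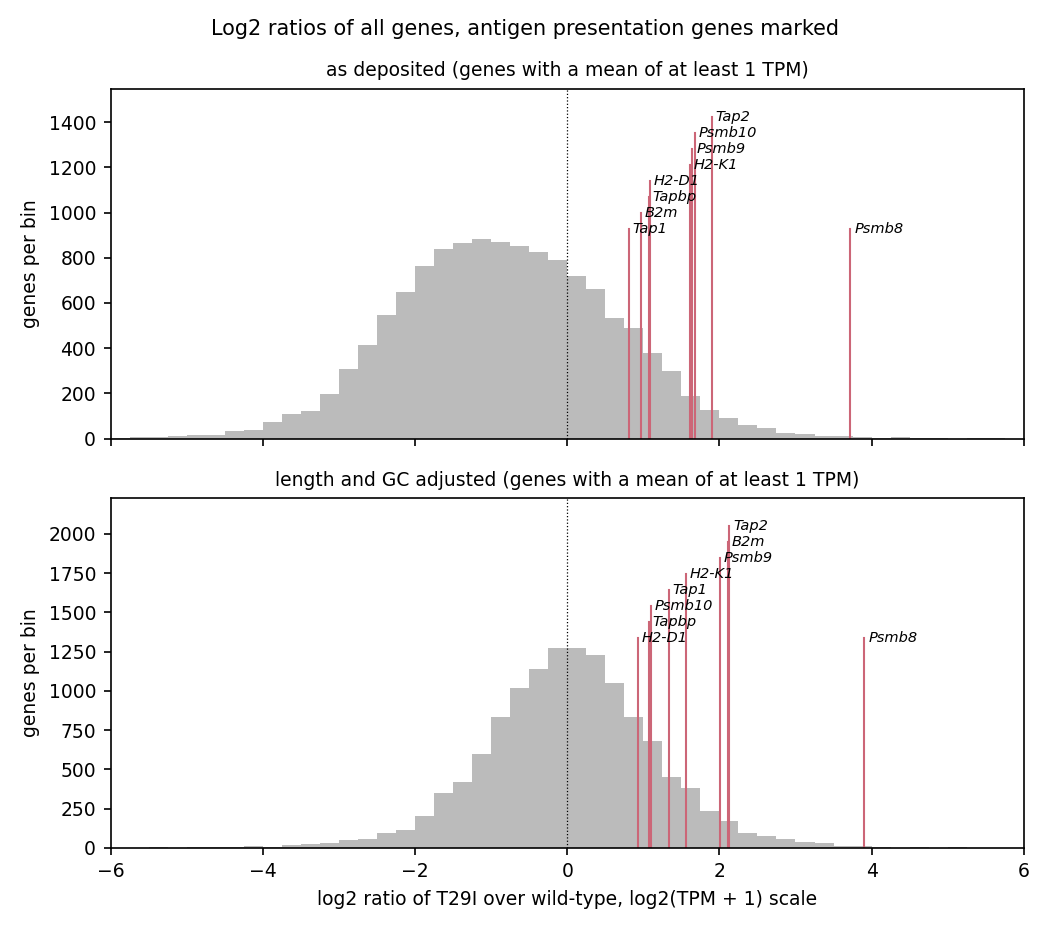
Number of genes (y axis) per bin of the log2 ratio, T29I over wild-type, (x axis) for all genes averaging at least 1 TPM, as deposited (top) and after length and GC adjustment (bottom), with 9 antigen presentation genes marked by red lines. All 9 lie to the right of 0 in both panels, while the whole distribution is centred below 0 in the top panel and near 0 in the bottom one.

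The heavy chains of the class I molecule were both higher in T29I. H2-K1 (ENSMUSG00000061232) was at 26.1 TPM in wild-type (95% counting interval 23.6 to 28.8) and 81.7 TPM in T29I (77.7 to 85.8), a fold of 3.13 (2.81 to 3.51). H2-D1 (ENSMUSG00000073411) was at 12.6 TPM (10.8 to 14.7) and 27.9 TPM (25.5 to 30.6), a fold of 2.21 (1.85 to 2.65). H2-K1 was the more abundant of the pair in both libraries, with 67.4% of their summed TPM in wild-type and 74.5% in T29I. Class I heavy chain genes are close copies of each other, and how the authors treated reads that map to several of them is not stated in any label or header, so the split between the 2 genes is uncertain. The sum of the pair, 38.7 and 110 TPM, was 2.83-fold higher, and reads passed to or from other class I genes would still alter it. After adjustment for length and GC content the log2 ratios were 1.56 for H2-K1 and 0.93 for H2-D1.

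B2m (ENSMUSG00000060802; chr2:122147686-122153083), which encodes beta-2-microglobulin, the light chain of every class I molecule, was at 23.5 TPM (19.2 to 28.5) in wild-type and 47.0 TPM (41.5 to 53.0) in T29I. The fold was 2.00 (1.59 to 2.53), less than that of either heavy chain as deposited. B2m differs from the other genes in having a short and GC-poor transcript of 860 bases with 41.2% GC. The fitted trend gives a gene of its length and GC content a log2 ratio of -1.15, so its adjusted ratio, 2.12, was above those of H2-K1 and H2-D1. Per unit of B2m TPM, the heavy chain sum was 1.65 in wild-type and 2.33 in T29I. Patl2, on the other strand, overlaps all 5398 bases of B2m and was at 2.69 and 4.54 TPM. Whether the counting used strand is not stated in any label or header.

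The peptide-loading genes were higher too, with the TAP subunits rare in both libraries. Tap1 (ENSMUSG00000037321; chr17:34187553-34197225) was at 1.55 TPM (1.12 to 2.08) and 3.46 TPM (2.88 to 4.12), a fold of 2.23 (1.57 to 3.22). Tap2 (ENSMUSG00000024339; chr17:34203527-34216321) was at 0.815 TPM (0.466 to 1.32) and 5.77 TPM (4.86 to 6.79), a fold of 7.07 (4.21 to 12.7). The 2 proteins work as a heterodimer. Tap1 had the higher level in wild-type and Tap2 in T29I. These values rest on an estimated 44 and 125 reads for Tap1 and 16 and 144 reads for Tap2. Tapbp (ENSMUSG00000024308), which encodes tapasin, was more abundant, at 20.4 TPM (18.4 to 22.5) and 44.0 TPM (41.3 to 46.7), a fold of 2.15 (1.92 to 2.43). Zbtb22, at 30.6 and 32.0 TPM, overlaps 3422 bases of Tapbp on the same strand, so reads there cannot be told apart by strand. The adjusted log2 ratios were 1.34 for Tap1, 2.13 for Tap2 and 1.07 for Tapbp.

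The immunoproteasome subunits were the genes with the widest spread of ratios, from a few-fold for Psmb10 to a near-absence in wild-type for Psmb8. Psmb8 (ENSMUSG00000024338; chr17:34197721-34201454), the chymotrypsin-like subunit, was at 0.0704 TPM (0.00178 to 0.392) in wild-type and 13.1 TPM (11.5 to 14.9) in T29I. The wild-type value came from an estimated 1 read, against 237 in T29I, so the fold of 186 has a counting interval of 33.1 to 7386. Psmb9 (ENSMUSG00000096727; chr17:34181987-34187764), which takes the place of the caspase-like subunit, was at 0.895 TPM (0.521 to 1.43) and 4.92 TPM (4.08 to 5.89), a fold of 5.50 (3.29 to 9.76). Its first bases overlap those of Tap1 by 212 bases on the opposite strand. Psmb10 (ENSMUSG00000031897; chr8:105935735-105938444), the trypsin-like subunit, was the most abundant of the 10 genes in both libraries, at 53.4 TPM (48.7 to 58.5) and 173 TPM (165 to 181), a fold of 3.23 (2.92 to 3.58). It made up 98.2% of the summed TPM of the 3 immunoproteasome subunits in wild-type and 90.5% in T29I. An unstranded count could also pass reads between Psmb10 and the antisense gene Gm16156, at 1.35 TPM in wild-type and listed at 0 in T29I, which overlaps its whole length, and between Psmb8 or Tap2 and the antisense gene Gm20496, at 0.291 TPM and listed at 0. The adjusted log2 ratios were 3.91 for Psmb8, 2.00 for Psmb9 and 1.10 for Psmb10.

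Each immunoproteasome subunit was also set against the constitutive subunit it replaces, as a ratio of TPM within 1 library, which does not depend on how that library was scaled. Psmb8 came to 0.0112% of Psmb5 in wild-type (0.000284 to 0.0626%) and 1.56% in T29I (1.37 to 1.78%). Psmb9 came to 0.196% of Psmb6 (0.114 to 0.315%) and 0.479% (0.397 to 0.574%), a ratio 2.44-fold higher in T29I. These 2 subunits thus stayed below 2% of their counterparts by RNA in both libraries. Psmb10 came to 23.4% of Psmb7 (21.2 to 25.7%) in wild-type and 250% (234 to 268%) in T29I. Of the constitutive genes, Psmb5 was at 627 and 839 TPM, Psmb6 at 456 and 1027 TPM and Psmb7 at 228 and 69.1 TPM. The 10.7-fold difference of the Psmb10 ratio therefore includes a Psmb7 level 3.31-fold lower in T29I. After adjustment for length and GC content the log2 ratio of Psmb7 was -0.23, and the difference between Psmb10 and Psmb7 was 1.33. The adjusted differences were 4.23 for Psmb8 against Psmb5 and 0.83 for Psmb9 against Psmb6.

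**Figure D4:**
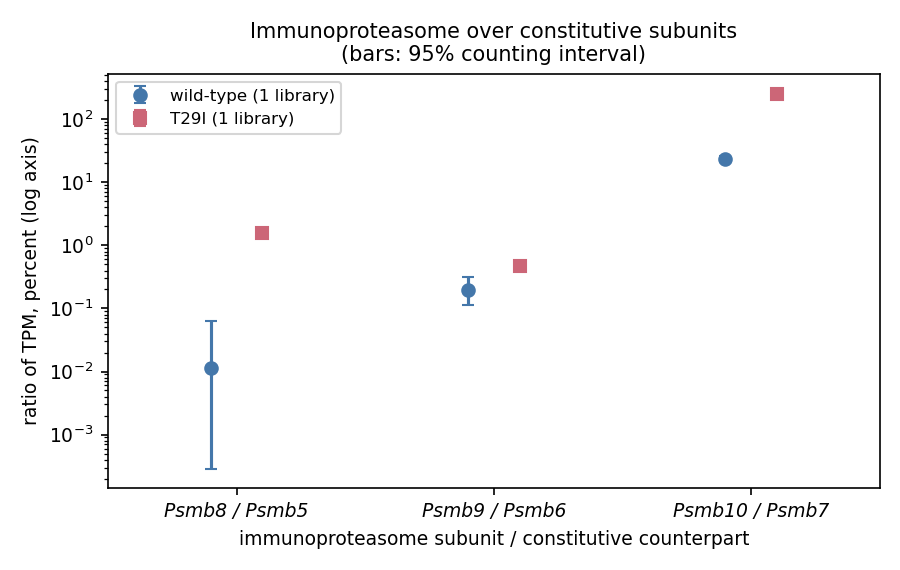
Ratio of TPM, in percent on a log axis (y), of each immunoproteasome subunit to the constitutive subunit it replaces (x), in wild-type (circles) and the T29I library (squares), with 95% counting intervals. The T29I ratio is the higher in all 3 pairs, and only Psmb10 over Psmb7 passes 100%.

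Nlrc5, the class I transactivator, was the exception as deposited. Nlrc5 (ENSMUSG00000074151; chr8:94434356-94527272) was at 0.408 TPM (0.242 to 0.645) in wild-type and 0.0535 TPM (0.0110 to 0.156) in T29I, or an estimated 18 and 3 reads. The fold was 7.64 in favour of the wild-type library (2.23 to 40.5), and Nlrc5 alone of the 10 missed the filter of an average of 1 TPM. Its transcript of 7578 bases is the longest of the 10 genes, and the trend gives a gene of that length and GC content a log2 ratio of -1.84. Ratios of so low a gene are compressed on the log2(TPM + 1) scale, where Nlrc5 stood at -0.42. Without a pseudocount the log2 ratio was -2.93 as deposited and -2.04 relative to the shift. On the log2(TPM + 1) scale the direction turned, to 0.48 relative to the shift and 1.42 after adjustment.

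As deposited, other regulators of the class I genes had shares near those of all genes tested, of which 9.97% were up 2-fold or more and 45.7% down 2-fold or more. Of 17 measured genes, from a list of 22 made for transcription factors of the pathway, 2 were up 2-fold or more and 9 down 2-fold or more as deposited. The list also took in Nlrx1 and Nlrp2, which are not transcription factors. The 2 up were Irf1 and Nlrx1, the latter at 1.47 and 5.55 TPM (adjusted log2 ratio 1.63). Irf1 was thus the only transcription factor of the list up 2-fold or more as deposited, and Nlrx1 is part of the next counts too. Relative to the shift the counts were 4 and 8, against 26.0% up and 22.2% down of all genes tested, a larger share down. After adjustment they were 3 and 2, against 17.6% and 15.5%. The list median was -1.41 as deposited and -0.17 after adjustment. Irf1, an interferon-induced activator of class I and immunoproteasome genes, had the highest ratio, at 16.8 and 69.4 TPM (4.13-fold higher, adjusted log2 ratio 2.21). Nfkb1 had the lowest, at 35.9 and 6.43 TPM. Rfx5, a subunit of the factor that binds the X box, was at 9.32 and 1.35 TPM, and Ciita, the class II transactivator, at 0.257 TPM in wild-type and listed at 0 in T29I. As deposited, Irf1 was thus higher in the library where 9 of the 10 antigen presentation genes were higher, while Rfx5 and Nlrc5 were not. Of 9 measured interferon receptors and kinases, 1 was up 2-fold or more and 4 down 2-fold or more, shares again near those of all genes, with a median of -0.59 as deposited and -0.07 after adjustment. Socs1, a feedback inhibitor that interferon induces, was at 6.47 and 28.2 TPM, and the kinase gene Jak1 at 20.8 and 5.17 TPM.

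The counts of the other companion lists stand against the same shares of all genes tested, 9.97% up and 45.7% down. The class II presentation list held no gene that was down 2-fold or more. Of 8 measured class II genes, 6 were up 2-fold or more and 0 down 2-fold or more, with a median of 1.40 as deposited and 0.88 after adjustment. Of these 6, H2-Oa and H2-Ab1 reached 1 TPM in T29I only and entered through that library. H2-DMb1, which helps load peptides on class II molecules, was at 1.17 and 9.58 TPM, and the protease gene Ctss at 2.70 and 1.45 TPM. Of 22 measured interferon-stimulated genes that are not among the 10, 10 were up 2-fold or more and 4 down 2-fold or more, with a median of 0.75 as deposited and 0.94 after adjustment. Of these 10, 6 were below 1 TPM in wild-type (Cxcl10, Gbp2, Irgm1, Irgm2, Isg15 and Zbp1) and entered through T29I, so the count partly reflects the filter. Gbp2, an interferon-induced GTPase, was at 0.0766 and 10.5 TPM, from an estimated 1 and 175 reads, and Trim25 at 110 and 23.8 TPM. The other class I heavy chains went both ways, with 2 of 13 up 2-fold or more, 5 down 2-fold or more and a median of -0.07, or -0.69 after adjustment. Of these, 1 of the 2 was below 1 TPM in wild-type and 3 of the 5 in T29I. H2-T22, a non-classical heavy chain, was at 2.76 and 20.1 TPM and H2-M5 at 53.8 and 3.21 TPM. H2-M5 thus stood above H2-K1 in wild-type and far below it in T29I.

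Proteasome genes outside the immunoproteasome did not show 1 direction. Of 35 constitutive subunits of the 20S core and 19S cap, 2 were up 2-fold or more and 10 down 2-fold or more, with a median of -0.36 as deposited, 0.54 relative to the shift and 0.09 after adjustment. Over all genes tested, 9.97% were up and 45.7% down. Psmb3 was at 251 and 664 TPM and Psmd1 at 232 and 48.6 TPM. Of the interferon-induced activator genes, Psme1 was at 53.2 and 139 TPM and Psme2 at 42.2 and 92.9 TPM, and their adjusted ratios were 1.12 and 0.95 (log2). In their list of 7 measured activators and assembly factors, Psme4 was lowest at 114 and 18.4 TPM, and 2 were up 2-fold or more and 2 down 2-fold or more (median -0.29, adjusted 0.09). Of 16 measured genes of peptide trimming, loading and quality control, 1 was up 2-fold or more and 10 down 2-fold or more, with a median of -1.38 as deposited and -0.01 after adjustment, so the count says little beyond the share of all genes. Thop1, a peptidase that degrades cytosolic peptides, was at 117 and 248 TPM, and Lnpep, a trimming aminopeptidase with a long transcript, at 40.3 and 0.497 TPM. Of 8 measured ligands of NK cells and of T cell checkpoints, 0 were up 2-fold or more and 5 down 2-fold or more (median -1.24, adjusted 0.45), and 4 of these 5 were below 1 TPM in T29I. Nectin2 was at 70.1 and 120 TPM and Raet1d at 8.15 and 0.210 TPM.

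**Figure D5:**
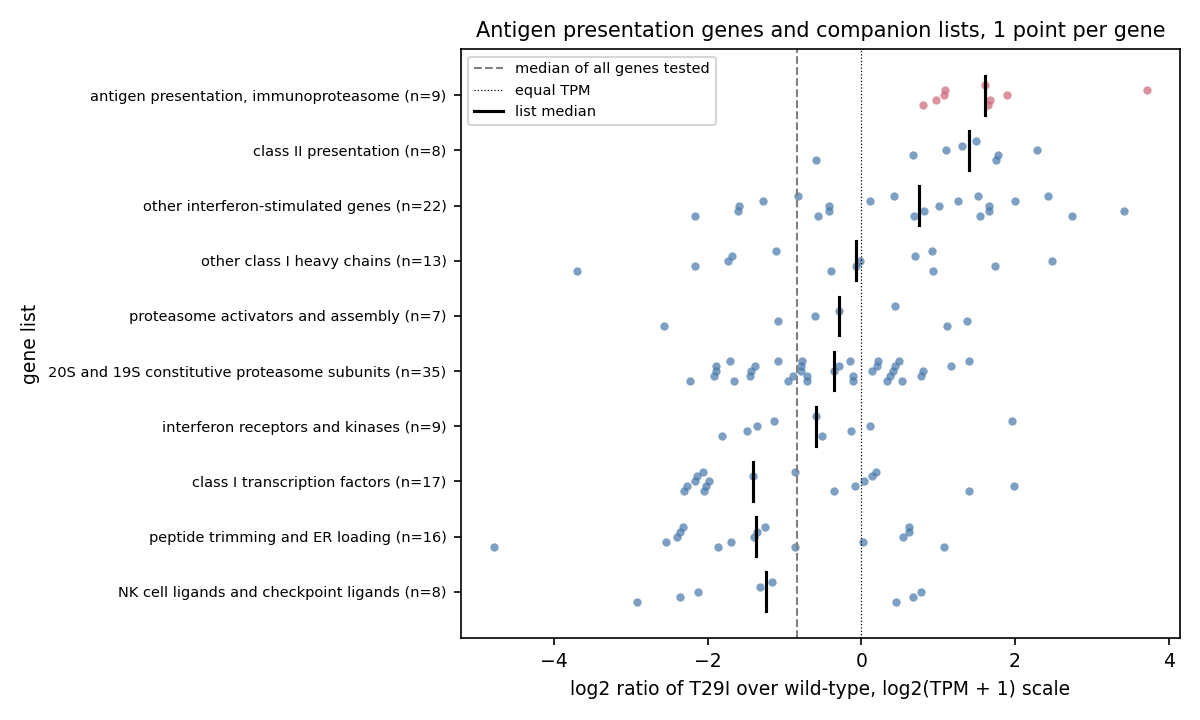
Log2 ratio, T29I over wild-type (x axis), of each measured gene in the antigen presentation set and 9 companion lists (y axis), with list medians as black bars and the median of all genes tested as a dashed line. The antigen presentation and class II lists lie mostly to the right of equal TPM, and the lists of trimming genes, transcription factors and NK ligands have medians to the left of the dashed line.

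Markers of other cell types differed between the libraries as well, and their part in these results was not tested. The 8 ES cell markers were all above 0 in both libraries and summed to 10775 and 7509 TPM. Of the 8, 1 (Utf1, at 972 and 2459 TPM) was up 2-fold or more and 4 down 2-fold or more, with a median of -1.14. These 4 were Zfp42 at 544 and 23.3 TPM, Nanog at 765 and 140.3 TPM, Tdgf1 at 899 and 357 TPM and Lin28a at 221 and 87.7 TPM. The rest were lower by less than 2-fold, with Dppa5a at 5089 and 2632 TPM, Pou5f1 at 1722 and 1454 TPM and Sox2 at 563 and 355 TPM. For these counts and those below, the shares of all genes tested were 9.97% up and 45.7% down. After adjustment for length and GC content, 0 of the 8 were up 2-fold or more and 2, Zfp42 and Nanog, down 2-fold or more (median -0.54). Utf1 then came to -0.40, Tdgf1 to -0.40 and Lin28a to -0.34. The 9 trophoblast markers summed to 119 and 896 TPM, and 5 of 6 measured ones were up 2-fold or more, 3 of them from below 1 TPM, with Plac1 listed at 0 in wild-type. The keratin genes Krt8, at 28.6 and 389 TPM, and Krt18, at 15.4 and 353 TPM, made up most of the T29I sum. Cdx2 (0.256 and 0.402 TPM), Elf5 (0.0983 and 0.103 TPM) and Gata3 (0.339 and 1.56 TPM) missed the filter. Hand1 had the highest ratio, at 0.868 and 79.5 TPM, and Tfap2c the lowest, at 73.4 and 53.1 TPM. The 10 fibroblast markers, which would mark feeder cells, summed to 413 and 185 TPM. Most of both sums came from Fn1, at 233 and 26.2 TPM, and Vim, at 172 and 139 TPM. Of 4 measured ones, 1 (Thy1, at 4.57 and 17.6 TPM) was up 2-fold or more and 1 (Fn1) down 2-fold or more. After adjustment 2 were up and 1 down, against 17.6% and 15.5% of all genes. Col1a1 was at 0.939 and 1.38 TPM, and Lum was listed at 0 in both. Of 11 listed leukocyte markers, which summed to 109 and 143 TPM, 3 of 7 measured ones were up 2-fold or more and 1 down 2-fold or more. The 3 up were Fyb at 0.0371 and 43.8 TPM, Cd79a at 2.78 and 13.0 TPM and Coro1a at 8.03 and 25.9 TPM. The 1 down was Laptm5, at 52.8 and 23.7 TPM. Ptprc, the pan-leukocyte marker CD45, missed the filter, at 0.0325 and 0.0128 TPM. The 9 erythroid markers summed to 2.92 and 1259 TPM, nearly all of it from Hbb-bs, which was listed at 0 in wild-type and at 1245 TPM in T29I; 5 of the 9 were listed at 0 in wild-type only, and Hba-a2 was at 0.866 and 1.13 TPM. The 5 endothelial markers summed to 30.9 and 41.0 TPM, with Emcn at 0 in both, Pecam1 at 24.3 and 36.8 TPM and Tek at 6.13 and 3.12 TPM. Prss1 itself was listed at 0 TPM in both libraries, so its level gives no check of the labels.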

How the data were processed

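Total RNA was extracted with Isogen and made into libraries with a stranded TruSeq total RNA kit with Ribo-Zero, per the labels' protocols. The authors deposited 1 table of TPM values per gene, in which each library sums to 1000000; the aligner, counting tool, build and annotation are named in none of the sources used here. Columns were assigned through the sample descriptions and groups through the genotype labels. The 10 genes and all lists were chosen with earlier results of these data known. Genes named from a list are its highest and lowest ratio among genes averaging at least 1 TPM, besides the 10 genes, their 3 constitutive counterparts, Psme1, Psme2, Irf1, Rfx5 and Ciita. Plac1, Lum, Col1a1, Ptprc, Emcn, Krt8, Krt18, Cdx2, Elf5 and Gata3 were named after their values were seen. So were H2-Oa, H2-Ab1, H2-DMa, H2-Eb1, Nanog, Tdgf1, Lin28a, Cxcl10, Irgm1, Irgm2, Isg15, Zbp1 and the overlapping genes Patl2, Zbtb22, Gm16156 and Gm20496. The same holds for Nlrx1, Nlrp2, Vim, Pou5f1, Sox2, Dppa5a, Cd79a and Coro1a.

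Of 51826 identifiers, 51633 matched GENCODE M21, which gave lengths, GC content and positions; the authors' build may differ. TPM times merged exon length, divided by the value of 1 read, was whole within 0.05 for 81.0% of values in wild-type and 79.9% in T29I, and the estimated depths were 16910002 and 15281662 reads. These estimates, rounded, gave the 95% exact Poisson intervals of levels and exact (Clopper-Pearson) intervals of folds, which cover counting error only. Reads of Psmb8, Tapbp and H2-K1 were not whole with the M21 length; the 1 and 237 reads of Psmb8 came from the ratio of its 2 values, and the other 2 genes were rounded. Ratios used a pseudocount of 1 TPM. The adjustment used log2 length of the longest transcript and its GC content, fitted over coding genes averaging at least 5 TPM, and removes true differences that follow them as well. No test was run, since 1 library per group leaves no spread. The steps were checked on simulated data (Python 3.11.15, NumPy 2.4.6, SciPy 1.17.1).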

Additional observations from a re-analysis of the deposited data

How the results depend on the processing

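The 10 ratios were recomputed under 6 other settings: pseudocounts of 0.1 and 0.5 TPM, subtraction of the median shift, upper-quartile scaling, rescaling without the 20 most abundant genes, and the length and GC adjustment. The 9 genes other than Nlrc5 stayed above 0 under all 6. A pseudocount cannot change the sign of a ratio, and subtracting the negative shift can only raise it. Both rescalings also raised these ratios, so only the length and GC adjustment could have turned any of them. Of the 60 values, 38 lay within the counting error of the deposited ratio, 20 moved by more and 2 changed sign, both of Nlrc5, which came to 0.48 relative to the shift and 1.42 when adjusted; subtracting -0.90 or -1.84 from a compressed -0.42 gives those values by construction. The median of the 9 genes, 1.61, became 2.51 relative to the shift, since that setting subtracts -0.90 from every ratio. Under the other settings it ranged from 1.56 to 2.23. Only 2.51 lay beyond the mean half-width of the counting intervals of the 9 genes. That width is not the counting error of a median, and Psmb8, with a fold interval of 33.1 to 7386, makes it wide. In 2 sets added after seeing the data the median was 1.35 over all 10 genes and 1.08 over the 6 at or above 1 TPM in both libraries. Between 5 (filter at an average of 5 TPM) and 9 genes were up 2-fold or more, and 0 of those passing the filter were down 2-fold or more under any setting. The filter at 5 TPM left fewer genes to count, since it also dropped Psmb9, Tap1 and Tap2. Of the genes it kept, only B2m was not up 2-fold or more. Nlrc5, which failed the filter, came to -1.73 with a pseudocount of 0.1 TPM and would count as down there. Without a filter the count was taken only with the pseudocount of 1 TPM, where Nlrc5 stood at -0.42. No paired analysis was possible because each group has 1 library. Depth limits Psmb8 in wild-type (1 estimated read) and Nlrc5 in T29I (3 reads).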

Other observations

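The stretch of chromosome 17 from Tapbp to H2-D1, chosen after seeing the data, holds 63 genes averaging at least 1 TPM. Of the 50 that are neither among the 10 genes nor named H2, 5 were up 2-fold or more and 10 down 2-fold or more, with a median log2 ratio of 0.10 as deposited and -0.17 after adjustment for length and GC content. Relative to the shift, 25 of the 50 were up 2-fold or more and 0 down 2-fold or more, with a median of 1.00, against 0.22 on the rest of chromosome 17. On that scale 26.0% of all genes tested were up 2-fold or more and 22.2% down 2-fold or more. Of the 632 genes on the rest of chromosome 17, 191 were up and 132 down. Of the 6 genes named H2 that are not among the 10, 5 were up 2-fold or more as deposited (H2-Oa, H2-DMa, H2-DMb1, H2-Ab1 and H2-Eb1). On the rest of chromosome 17, 10.9% of 632 genes were up 2-fold or more and 42.2% down 2-fold or more as deposited, with medians of -0.68 as deposited and -0.03 after adjustment. The 7 antigen presentation genes in the stretch had medians of 1.61 and 1.56. Immune genes of the stretch outside the class I and class II families include Ltb, which encodes lymphotoxin beta, at 0.635 TPM in wild-type and 9.89 TPM in T29I (adjusted log2 ratio 1.51), named after its values were seen. Next to the class II genes, Brd2, a chromatin reader, was at 120 and 47.3 TPM.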
